A study of Mus musculus with 8 samples.

Results

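The 10 genes described here, of 55487 genes in the mouse count table, are targets and regulators of the transcription factor NRF2 that serve the glutathione and thioredoxin systems. They were chosen by name and not by a rule on their measured values, although earlier results of these data were known: Nfe2l2, Keap1, Gclc, Gclm, Gsr, Txnrd1, Prdx1, Srxn1, Nqo1 and Osgin1. All 10 passed the filter on low counts, with between 479 and 130917 counts per library. BMDC are dendritic cells grown from bone marrow, here from WT, immunocompetent C57/bl6 mice (female, 6 to 8 weeks old by the study's methods) during 10 days in GM-CSF at 20 ng/ml. Untreated BMDC (n = 4 libraries) were compared with BMDC-fer (n = 4 libraries), which had been stained with CellTraceViolet, kept for 4 h with ferroptotic Jurkat cells and sorted for cells that had engulfed them. Jurkat cells are an established line of human T-cell leukemia and had been killed with ML162, an inhibitor of the lipid peroxidase GPX4, at 0.5 µM for 14 h. The study gives each group as independently collected samples. The sources describe neither a sort nor a mock co-culture for untreated BMDC, and no BMDC fed with another cargo were measured. The effects of cargo, of any ML162 carried over with it, of co-culture and of sorting therefore cannot be told apart.

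NRF2, encoded by Nfe2l2, is held in the cytoplasm and sent for degradation by KEAP1, an adaptor of a ubiquitin ligase whose reactive cysteines sense electrophiles and oxidants. When KEAP1 is modified, NRF2 accumulates in the nucleus, pairs with a small MAF protein and binds antioxidant response elements in the promoters and enhancers of genes for glutathione synthesis, thioredoxin reduction and quinone detoxification. NRF2 is regulated largely at the level of protein stability, which RNA counts do not measure. In dendritic cells, the pathway is known to limit oxidative stress and to restrain activation.

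Total counts were between 39326672 and 50532209 per library, and a floor of 3 counts was between 0.0607 and 0.0785 CPM (counts scaled to a common library size after TMM adjustment). The sources describe no molecular identifiers, so reads are not independent molecules and the floor covers counting error only. Replicates 1 and 2 of either group were unlike replicates 3 and 4, and values within each of these pairs are therefore given beside the pooled ones. Of 15411 genes tested, 1445 (9.38%) were called in BMDC-fer against BMDC, 534 higher (3.47%) and 911 lower (5.91%), where a called gene had an adjusted p up to 0.05 and a log2 fold change of at least 0.58 in size. Higher genes made up 37% of the calls, and 20.3% when libraries were scaled by their totals alone. The dendritic cell marker Itgax was at 748 CPM or more in every library, while Flt3, the receptor for a dendritic cell growth factor, fell from 3.92 to 0.229 CPM (log2 fold change -4.06, adjusted p = 0.00207). Summed levels of 9 dendritic cell markers spanned 7561 to 17658 CPM in BMDC and 3422 to 8603 CPM in BMDC-fer, and 2 of the 9 were called, both lower. Summed levels of 8 macrophage markers spanned 2491 to 3445 CPM and 2949 to 4632 CPM, with 1 called lower. Summed levels of 8 neutrophil markers were 261, 44.8, 230.4 and 59.4 CPM in BMDC replicates 1 to 4 and 13.9 to 43.7 CPM in BMDC-fer, with 4 called lower and Ly6g, Mpo and Elane under 1 CPM on average over the 8 libraries. The 8 T-cell markers, all under 1 CPM on average, summed to 2.15 to 5.41 CPM and 0.497 to 1.34 CPM, with 1 of the 2 tested called lower. The 7 mast cell and basophil markers summed to 21.8 to 29.1 CPM and 5.82 to 22.3 CPM, 5 of them were under 1 CPM on average, and neither of the 2 tested was called. The neutrophil and T-cell sums did not overlap between the groups, and the dendritic cell, macrophage, and mast cell and basophil sums did. Such marker differences run along with the groups in every result below, and their part in the results was not tested. In bulk samples, fewer cells of a type and less RNA per cell cannot be told apart.

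The antioxidant response element has the core TGACNNNGC, and this word was searched on both strands of RefSeq promoter windows (GRCm38.p6, 250 bases before to 50 after each start site). The windows are shown because Gclm, Srxn1 and Prdx1 moved together across libraries, as did other pairs of the 10 genes. Of the 10 genes, 8 had a window, Gclc and Gsr had none, and 5 of the 8 held the core (Nfe2l2, Gclm, Srxn1, Prdx1 and Txnrd1). Txnrd1 alone had more than 1 window, and only that starting at chr10:82858956, inside the gene, held the core. Of all 27025 genes with a window, 13.99% held it, and of all 32851 windows, 12.4%. Positions are counted from the RefSeq start sites, and that of Nfe2l2 lies upstream of the gene's end in the GENCODE M21 annotation, chr2:75704641. Each match is printed with 10 bases on either side, on the strand that carries the core, with the core in capitals.
Nfe2l2, chr2:75704885-75704913, minus strand, core at bases -240 to -232 from the start site: tcagcccaccTGACTCCGCcatgccccgg
Gclm, chr3:122245413-122245441, minus strand, core at -134 to -126: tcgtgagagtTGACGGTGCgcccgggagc
Txnrd1, chr10:82859104-82859132, minus strand, core at -92 to -84: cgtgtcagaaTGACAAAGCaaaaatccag
Prdx1, chr4:116685456-116685484, minus strand, core at -133 to -125: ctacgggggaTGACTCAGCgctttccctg
Srxn1, chr2:152105542-152105570, minus strand, core at 29 to 37 after the start site: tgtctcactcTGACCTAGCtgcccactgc

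A stricter form of the element has an A directly after the core, which was found in 1 of the 8 genes, Txnrd1, and in 3.45% of all genes with a window. The Prdx1 core contains TGACTCA, which is also the word bound by AP-1 factors, so this match cannot be assigned to either factor from its letters. The word TGANTCA, which reads on both strands and was searched after the sequences had been seen, was held by 3 of the 8 genes and by 8.97% of all genes with a window. Srxn1 held it at -102 to -96 and at -45 to -39, Prdx1 at -237 to -231 and inside its TGACNNNGC match, and Osgin1 at -97 to -91. The 250 bases before this Osgin1 start site, chr8:119436897-119437146, lie inside the annotated gene, which begins at chr8:119434124. These are printed on the strand of the gene, with TGANTCA in capitals.
Srxn1, chr2:152105412-152105438, plus strand: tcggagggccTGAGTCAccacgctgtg
Srxn1, chr2:152105469-152105495, plus strand: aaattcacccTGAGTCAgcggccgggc
Prdx1, chr4:116685352-116685378, plus strand: aacgaggaaaTGACTCAaagggcagtg
Prdx1, chr4:116685458-116685484, plus strand: gggaaagcgcTGAGTCAtcccccgtag
Osgin1, chr8:119437040-119437066, plus strand: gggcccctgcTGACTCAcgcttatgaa

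The wider context of the 2 matches that lie more than 100 bases before the start site of a plus-strand gene is given by the 250 bases before the start sites of Gclm and Prdx1, in which the TGACNNNGC match, read here on the opposite strand, is in capitals.
Gclm, chr3:122245307-122245556, plus strand: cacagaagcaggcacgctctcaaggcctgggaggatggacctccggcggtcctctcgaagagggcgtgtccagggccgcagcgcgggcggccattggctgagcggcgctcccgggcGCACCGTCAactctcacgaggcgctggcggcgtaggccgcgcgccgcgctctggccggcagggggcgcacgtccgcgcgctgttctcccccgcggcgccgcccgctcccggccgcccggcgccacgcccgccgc
Prdx1, chr4:116685349-116685598, plus strand: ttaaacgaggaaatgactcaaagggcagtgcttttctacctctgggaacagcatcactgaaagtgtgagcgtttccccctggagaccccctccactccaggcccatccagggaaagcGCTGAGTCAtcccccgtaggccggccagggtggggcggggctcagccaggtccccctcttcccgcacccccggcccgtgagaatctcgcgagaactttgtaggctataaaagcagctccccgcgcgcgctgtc
A match describes letters and not a bound site, and the windows of Nqo1, Keap1 and Osgin1 held no TGACNNNGC within these 300 bases.

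Of the 10 genes, 2 were called in BMDC-fer against BMDC, Nqo1 and Srxn1, both higher, beside the 9.38% called over all genes tested. A further 4, Nfe2l2, Keap1, Gclm and Prdx1, were higher at an unadjusted p under 0.05 without passing the adjustment. None of the 10 was lower at that level. The share of all genes tested at that unadjusted level is not given here, so these counts have no background to be read against. The fold change was above 0 for 9 of the 10, Osgin1 being the exception, and for 7718 of the 15411 genes tested. The median log2 fold change of the 10 was 0.52 and that of all genes tested 0.0007. With the replicate number as a block, 5 of the 10 were called higher (Nqo1, Srxn1, Nfe2l2, Gclm and Prdx1), beside 13.0% of all genes called in either direction. DESeq2 called 4 higher (Nqo1, Srxn1, Gclm and Prdx1), beside 12.5% of all genes. Without BMDC replicates 1 and 3, which had the highest neutrophil marker levels, none of the 10 was called and 92 genes were called over the whole table. That fit had fewer libraries. Its log2 fold changes were 2.079 for Nqo1 and 1.175 for Srxn1, against 2.156 and 1.169 with all libraries. The part of neutrophil levels in the lost calls was not tested.

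**Figure D1:**
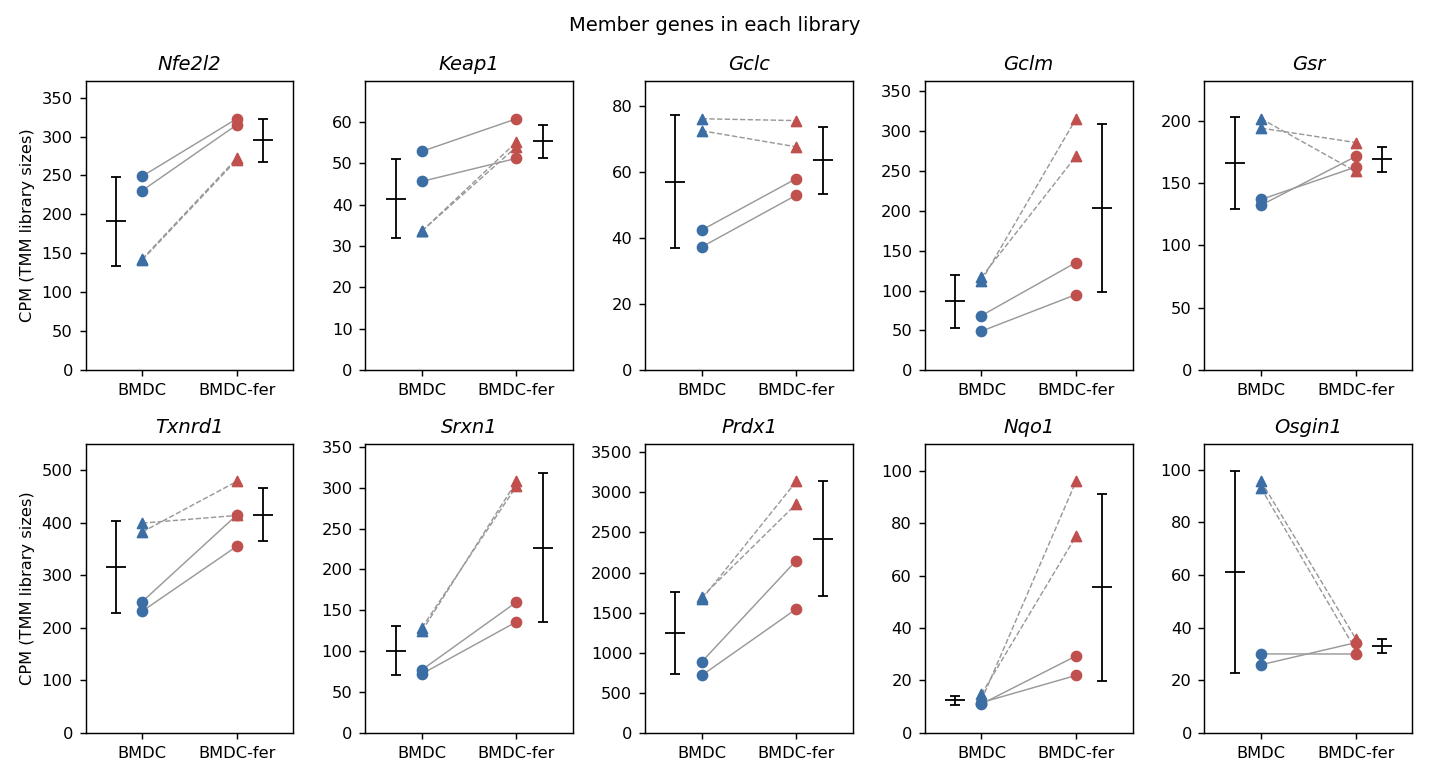
Level of each of the 10 genes in CPM (y axis, linear from 0) in BMDC and BMDC-fer libraries (x axis). Circles are replicates 1 and 2, triangles replicates 3 and 4, lines join libraries of the same number, and bars give the mean and SD of 4 libraries. Nqo1, Srxn1 and Nfe2l2 show no overlap between groups, and Osgin1 in BMDC splits into 25.9 to 29.99 CPM and 92.8 to 95.5 CPM.

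Nfe2l2 (chr2:75675513-75704641, minus strand, GRCm38 with the GENCODE M21 annotation), which encodes NRF2 itself, was at 231, 249, 143 and 142 CPM in BMDC replicates 1 to 4 and at 315, 323, 272 and 270.1 CPM in BMDC-fer. Every BMDC-fer library was above every BMDC library, and replicates 1 and 2 were the higher pair in both groups. The means were 191 ± 56.9 and 295 ± 27.8 CPM (SD, n = 4), the log2 fold change was 0.63 (SE 0.21, 95% interval 0.16 to 1.09), and the adjusted p of edgeR's quasi-likelihood test was 0.080. With the replicate number as a block the log2 fold change was 0.67 with an adjusted p of 0.0277, which made Nfe2l2 a call, as did leaving out BMDC replicate 2 (0.79, adjusted p = 0.0461). The difference was 0.42 (log2) within replicates 1 and 2 and 0.94 within replicates 3 and 4.

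Keap1 (chr9:21229730-21239361, minus strand), which encodes the inhibitor of NRF2, was at 45.6, 52.9, 33.6 and 33.6 CPM in BMDC and at 51.2, 60.8, 55.2 and 54.0 CPM in BMDC-fer. The groups overlapped only through BMDC replicate 2 and BMDC-fer replicate 1, and BMDC replicates 3 and 4 were lowest. The log2 fold change was 0.42 (SE 0.16, 95% interval 0.05 to 0.78, adjusted p = 0.126), and Keap1 was not called. Within replicates 1 and 2 it was 0.19 and within replicates 3 and 4 it was 0.71. Of the exon bases of Keap1, 10.9% lie opposite Gm16754, a gene on the other strand at 2.12 to 3.62 CPM, and the use of strand in counting is not given in the sources used here.

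Per exon length, Nfe2l2 RNA was 5.63 ± 0.501 times that of Keap1 in BMDC and 6.61 ± 0.693 times in BMDC-fer (ratio of RPKM, the CPM per kilobase of merged exons, SD, n = 4). The ratios of the groups overlapped, from 5.20 to 6.25 in BMDC and from 6.10 to 7.61 in BMDC-fer. At each replicate number the ratio was higher in BMDC-fer, by 1.36, 0.747, 0.850 and 0.984, with a mean difference of 0.985 ± 0.267 (SD of 4 differences). The levels of the pair also varied together within the groups (Pearson r = 0.923 for deviations from the group means over 8 libraries, a description in which libraries of a replicate pair share their level).

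Gclc and Gclm encode the catalytic and the modifier subunit of glutamate-cysteine ligase, the first and rate-limiting enzyme of glutathione synthesis. Gclc (chr9:77754535-77794485, plus strand) was at 42.4, 37.3, 76.0 and 72.4 CPM in BMDC and at 57.9, 52.9, 75.5 and 67.5 CPM in BMDC-fer. The groups overlapped, and replicates 3 and 4 were higher in both. Its log2 fold change was 0.15 (SE 0.25, 95% interval -0.40 to 0.71, adjusted p = 0.704), with 0.48 within replicates 1 and 2 and -0.04 within replicates 3 and 4.

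Gclm (chr3:122245557-122270732, plus strand) was at 68.5, 49.0, 112 and 117 CPM in BMDC and at 135, 94.95, 316 and 268 CPM in BMDC-fer. BMDC-fer was higher at every replicate number, by 0.95 to 1.49 (log2), but the groups overlapped because BMDC replicates 3 and 4 were above BMDC-fer replicate 2. The means were 86.6 ± 33.2 and 204 ± 105 CPM (SD, n = 4), and the log2 fold change was 1.23 (SE 0.42, 95% interval 0.28 to 2.19, adjusted p = 0.090). Gclm was called under the replicate block (1.16, adjusted p = 0.00574) and by DESeq2 (adjusted p = 0.0249). Of its exon bases, 4.71% lie opposite Gm17494, which was at 0.906 to 14.1 CPM and highest in BMDC replicates 3 and 4.

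The ratio of the subunits separated the groups although the level of neither did. How large a share of other gene pairs has a ratio that separates the groups was not computed. The ratio of Gclm to Gclc RNA (RPKM) was 0.968, 0.787, 0.882 and 0.966 in BMDC and 1.40, 1.07, 2.50 and 2.38 in BMDC-fer. Every BMDC-fer library had more Gclm than Gclc per exon length and every BMDC library had less. The mean ratios were 0.901 ± 0.0856 and 1.84 ± 0.710 (SD, n = 4), the SD in BMDC-fer coming from replicates 3 and 4 lying above replicates 1 and 2.

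Gsr (chr8:33652523-33698163, plus strand) encodes glutathione reductase, which returns oxidized glutathione to its reduced form with NADPH. It was at 137, 132, 194 and 201 CPM in BMDC and at 163, 171, 182 and 159 CPM in BMDC-fer. The BMDC-fer libraries lay inside the BMDC range, which split into a lower and a higher pair. The log2 fold change was 0.02 (SE 0.16, 95% interval -0.33 to 0.38, adjusted p = 0.931) and turned to -0.05 when libraries were scaled by their totals alone. Within replicates 1 and 2 it was 0.32 and within replicates 3 and 4 it was -0.20, so the value near 0 was the average of opposite differences.

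**Figure D2:**
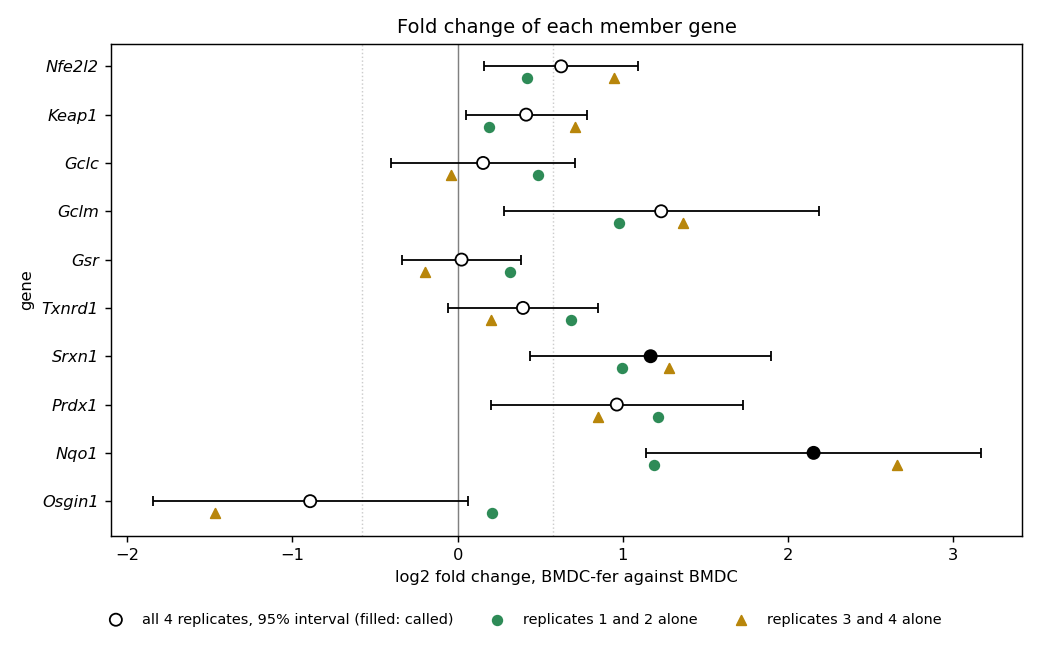
Log2 fold change of BMDC-fer against BMDC (x axis) for each of the 10 genes (y axis). Large points are edgeR estimates over all 4 replicates with 95% intervals, filled where called. Small circles and triangles are the values within replicates 1 and 2 and within replicates 3 and 4, and dotted lines mark a log2 fold change of -0.58 and 0.58. Nqo1 is farthest to the right at 2.16, and Gclc, Gsr and Osgin1 have their small symbols on opposite sides of 0.

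Txnrd1 (chr10:82833951-82897712, plus strand) encodes cytosolic thioredoxin reductase, the selenoenzyme that uses NADPH to reduce thioredoxin. It was at 249.6, 232, 382 and 399 CPM in BMDC and at 414, 355, 478 and 414 CPM in BMDC-fer. BMDC-fer was higher at every replicate number, by 0.73, 0.62, 0.32 and 0.05 (log2), and the groups overlapped. For Txnrd1 the log2 fold change was 0.40 (SE 0.20, 95% interval -0.06 to 0.85, adjusted p = 0.221), and Txnrd1 was not called. The ratio of Txnrd1 to Gsr RNA (RPKM), which sets the thioredoxin against the glutathione reductase, was 0.709, 0.680, 0.766 and 0.770 in BMDC and 0.990, 0.806, 1.02 and 1.01 in BMDC-fer, with no overlap and means of 0.731 ± 0.0438 and 0.956 ± 0.101 (SD, n = 4). The size of this ratio rests on merged exons of 7086 bases for Txnrd1, whose longest transcript has 3622. That length is the same in every library, so the comparison of the groups does not depend on it. The share of other gene pairs with such a separation was not computed.

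Prdx1 (chr4:116685544-116700822, plus strand) encodes an abundant peroxiredoxin, which reduces hydrogen peroxide and is recycled by thioredoxin. It was at 886, 717.5, 1667 and 1695 CPM in BMDC and at 2150.0, 1546, 3137 and 2855 CPM in BMDC-fer. BMDC-fer was higher at every replicate number, by 0.75 to 1.28 (log2), and the groups overlapped only because BMDC replicates 3 and 4 were above BMDC-fer replicate 2. The means were 1241 ± 512 and 2422 ± 717 CPM (SD, n = 4), and the log2 fold change was 0.96 (SE 0.34, 95% interval 0.20 to 1.73, adjusted p = 0.096). Prdx1 was called under the replicate block (1.01, adjusted p = 0.00945) and by DESeq2 (adjusted p = 0.0342). Of the 50-base words of its longest transcript, 10.9% also occur in transcripts of other genes, so its counts depend in part on how reads with several matches were handled, which is not given in the sources used here.

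Srxn1 (chr2:152105516-152111376, plus strand) encodes sulfiredoxin, which repairs over-oxidized peroxiredoxins. It rose in BMDC-fer, from 77.2, 72.3, 125 and 129 CPM in BMDC to 160.1, 136, 308 and 302 CPM. The lowest BMDC-fer library was above the highest BMDC library, and replicates 3 and 4 were the higher pair in both groups. The means were 101 ± 30.1 and 226 ± 91.1 CPM (SD, n = 4), a 2.25-fold difference, with a log2 fold change of 1.17 (SE 0.32, 95% interval 0.44 to 1.90, adjusted p = 0.0481). With the replicate number as a block it was 1.12 (adjusted p = 0.00511), and it was 0.99 within replicates 1 and 2 and 1.28 within replicates 3 and 4. The call was near its threshold. It was kept only without BMDC-fer replicate 2 (adjusted p = 0.0447) and lost when any other single library was left out, with adjusted p of 0.0875, 0.0860, 0.0716 and 0.0643 without BMDC replicates 1, 2, 3 and 4 and of 0.0540, 0.113 and 0.124 without BMDC-fer replicates 1, 3 and 4. The fold change (log2) stayed between 0.99 and 1.35 in these fits.

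The ratio of Srxn1 to Prdx1 RNA (RPKM) was 0.0914 ± 0.0131 in BMDC and 0.0988 ± 0.0146 in BMDC-fer (SD, n = 4), and the groups overlapped. The close means averaged opposite differences. In replicates 1 and 2 the ratio was lower in BMDC-fer (0.0940 against 0.0804 and 0.109 against 0.0949), and in replicates 3 and 4 it was higher (0.0807 against 0.106 and 0.0820 against 0.114). Across the 8 libraries, the log2 levels of Gclm and Srxn1 (Pearson r = 0.983), of Gclm and Prdx1 (0.968) and of Srxn1 and Prdx1 (0.965) were the most alike of all pairs of the 10 genes. Nfe2l2 and Keap1 (0.964) and Txnrd1 and Prdx1 (0.963) followed closely. For deviations from the group means, the correlations of Gclm, Srxn1 and Prdx1 in the same order were 0.983, 0.940 and 0.926. By that measure Gclc and Txnrd1 (0.980), Gclc and Prdx1 (0.966) and Txnrd1 and Prdx1 (0.951) were above 0.940, so Gclm, Srxn1 and Prdx1 did not stand apart. These values are descriptions over 8 libraries that share the replicate pairs.

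Nqo1 (chr8:107388225-107403206, minus strand) encodes NAD(P)H quinone dehydrogenase, which detoxifies quinones by a reduction that avoids radical intermediates and is a standard readout of NRF2. It rose most of the 10 genes and ranked 13 among the 15411 genes tested by log2 fold change. The counts were 479, 550, 529 and 591 in BMDC and 1450, 896, 4004 and 2867 in BMDC-fer, which gave 11.04, 11.6, 12.5 and 14.7 CPM and 29.3, 21.9, 95.9 and 75.0 CPM. The BMDC libraries lay close together, and in BMDC-fer replicates 3 and 4 were well above replicates 1 and 2, all 4 being above every BMDC library. The means were 12.5 ± 1.63 and 55.6 ± 35.7 CPM (SD, n = 4), a 4.46-fold difference, with a log2 fold change of 2.16 (SE 0.45, 95% interval 1.14 to 3.17, adjusted p = 0.0204). With the replicate number as a block it was 1.91 (adjusted p = 0.0203). Within replicates 1 and 2 the log2 fold change was 1.19 and within replicates 3 and 4 it was 2.66. The call was lost without BMDC replicate 3 (2.16, adjusted p = 0.0505), without BMDC-fer replicate 4 (1.98, adjusted p = 0.0601) and without BMDC replicates 1 and 3 together (2.08, adjusted p = 0.155), and kept without each of the other 6 libraries.

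Osgin1 (chr8:119434124-119446256, plus strand) encodes an oxidative stress-induced growth inhibitor and was the only one of the 10 with a lower mean in BMDC-fer. It was at 25.9, 29.99, 92.8 and 95.5 CPM in BMDC and at 34.3, 29.96, 31.5 and 35.8 CPM in BMDC-fer. BMDC replicates 3 and 4 were high, and the other 6 libraries lay together. Its log2 fold change was -0.89 (SE 0.42, 95% interval -1.85 to 0.06, adjusted p = 0.190), and Osgin1 was not called. Within replicates 1 and 2 it was 0.21 and within replicates 3 and 4 it was -1.47, so the pooled value rested on BMDC replicates 3 and 4.

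Each gene was also compared by exact permutation of the 8 libraries on the log2(CPM + 0.05) scale, two-sided, over 70 placements. The smallest p this permutation can give, 0.0286, was reached by Nfe2l2, Srxn1 and Nqo1. These were the 3 of the 10 genes in which all BMDC-fer libraries were above all BMDC libraries, beside 11.3% of all genes tested. None of the 10 had all BMDC-fer libraries below, beside 11.6% of all genes. The exact permutation p was 0.0571 for Keap1, 0.0857 for Prdx1, 0.114 for Gclm, 0.143 for Txnrd1, 0.4 for Osgin1, 0.514 for Gclc and 0.771 for Gsr.

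The untreated libraries already differed in these genes. In BMDC, replicates 3 and 4 were above replicates 1 and 2 by 1.76 (log2) for Osgin1, 1.08 for Prdx1, 0.98 for Gclm, 0.90 for Gclc, 0.76 for Srxn1, 0.70 for Txnrd1, 0.56 for Gsr and 0.26 for Nqo1. Nfe2l2 and Keap1 went the other way and were lower in replicates 3 and 4, by -0.75 and -0.55. In BMDC-fer, the same difference was 1.74 for Nqo1, 1.36 for Gclm, 1.05 for Srxn1, 0.72 for Prdx1, 0.37 for Gclc, 0.21 for Txnrd1, 0.07 for Osgin1, 0.03 for Gsr, -0.03 for Keap1 and -0.23 for Nfe2l2. Nfe2l2 therefore ran against most of the genes listed as its targets within the groups, with a Pearson r for deviations from the group means of -0.985 with Gclc, -0.962 with Txnrd1 and -0.946 with Osgin1, although its mean was higher in BMDC-fer. Fold changes were above 1 in both replicate pairs for 7 of the 10 genes and on opposite sides of 1 for Gclc, Gsr and Osgin1. The share of all genes tested with 1 direction in both pairs is not given here, so this count has no background. The median log2 fold change of the 10 was 0.58 within replicates 1 and 2 and 0.78 within replicates 3 and 4, both higher in BMDC-fer. A difference in effect between the replicate pairs was not tested.

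**Figure D3:**
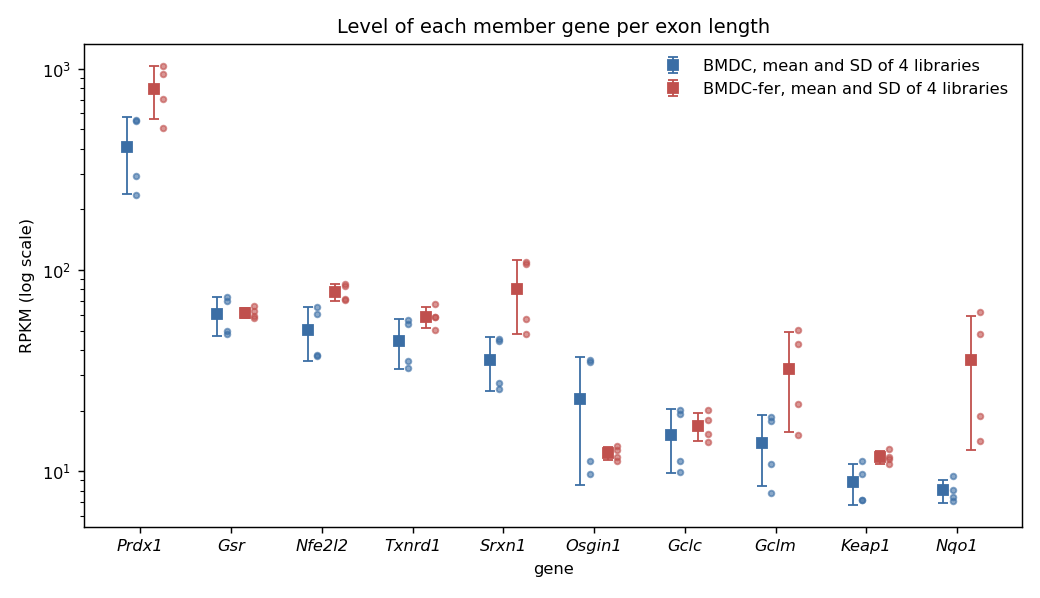
Level of each of the 10 genes in RPKM (y axis, log scale), ordered by the BMDC mean (x axis). Squares and bars are the mean and SD of 4 libraries and small points the libraries. Prdx1 is the highest gene in both groups, and Nqo1 moves from the lowest mean in BMDC, 8.03, to 35.8 in BMDC-fer.

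Levels of different genes were compared per exon length, in RPKM, over the merged exons of all annotated transcripts. Merged exons were 7086 bases for Txnrd1, against 3622 in its longest transcript, and 3796 against 2475 for Nfe2l2. For Gsr they were 2754 against 2673, so the order of these genes depends on the length used. In BMDC, Prdx1 was highest at 408 ± 168, followed by Gsr at 60.3 ± 13.3, Nfe2l2 at 50.3 ± 15.0, Txnrd1 at 44.5 ± 12.3 and Srxn1 at 35.7 ± 10.7 (SD, n = 4). The lower levels were those of Osgin1 at 22.8 ± 14.3, Gclc at 15.1 ± 5.32, Gclm at 13.8 ± 5.27, Keap1 at 8.83 ± 2.02 and Nqo1 at 8.03 ± 1.05. From Gsr down, the means of neighbours in this order differed by less than the larger of their SDs, and Prdx1 alone stood clear of the next gene. In BMDC-fer the order was Prdx1 (796 ± 235), Srxn1 (80.3 ± 32.3), Nfe2l2 (77.7 ± 7.33), Gsr (61.3 ± 3.74), Txnrd1 (58.6 ± 7.11), Nqo1 (35.8 ± 23.0), Gclm (32.4 ± 16.7), Gclc (16.9 ± 2.67), Osgin1 (12.3 ± 0.978) and Keap1 (11.8 ± 0.855). Srxn1 moved from the fifth to the second place and Nqo1 from the last to the sixth, and there Srxn1 lay within its SD of Nfe2l2, Gsr and Txnrd1 and Nqo1 within its SD of Gclm and Gclc. By the mean over all libraries, Prdx1 ranked 76 among 15397 genes with an exon length, and Keap1, the lowest of the 10, ranked 4384.

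Of 25 further NRF2 targets, 22 were tested and 5 were called, all higher, beside 9.38% over all genes. Their median log2 fold change was 0.59, 19 of 22 were above 0, while the replicate block gave 8 calls and DESeq2 gave 9, all higher. Hmox1, which encodes the heme-degrading enzyme heme oxygenase-1, rose most, from 290.1 ± 169 to 1173 ± 281 CPM (log2 fold change 2.02, SE 0.42, adjusted p = 0.0215). Blvrb, a flavin reductase that also reduces biliverdin forms other than the main product of heme oxygenase, rose from 87.0 ± 20.8 to 188 ± 30.7 CPM (1.11, SE 0.19, adjusted p = 0.0110), and Slc48a1, a heme transporter, rose from 181 ± 26.9 to 326 ± 51.5 CPM (0.85, SE 0.16, adjusted p = 0.0131). The other called genes encode enzymes that make NADPH. Me1, malic enzyme, rose from 1.49 ± 0.578 to 5.70 ± 2.11 CPM (1.93, SE 0.38, adjusted p = 0.0161), and G6pdx, glucose-6-phosphate dehydrogenase, rose from 128 ± 7.31 to 194 ± 19.0 CPM (0.60, SE 0.10, adjusted p = 0.0110). The calls of Blvrb and Slc48a1 held whichever single library was left out. The call of Hmox1 was lost without BMDC-fer replicate 3 or 4 (adjusted p = 0.0537 and 0.0610), that of Me1 without BMDC-fer replicate 4 (adjusted p = 0.0546), and G6pdx, which stayed at an adjusted p of 0.0450 or less, fell short of the fold change threshold without BMDC replicate 3 or 4 or BMDC-fer replicate 3 or 4. The lowest value was that of Sqstm1, the autophagy receptor p62, at 583 ± 355 and 427 ± 26.5 CPM (-0.45, adjusted p = 0.483). Like Osgin1, Sqstm1 was higher in BMDC replicates 3 and 4 than in replicates 1 and 2 (by 1.69, log2) and differed by 0.57 within replicates 1 and 2 and by -0.99 within replicates 3 and 4.

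**Figure D4:**
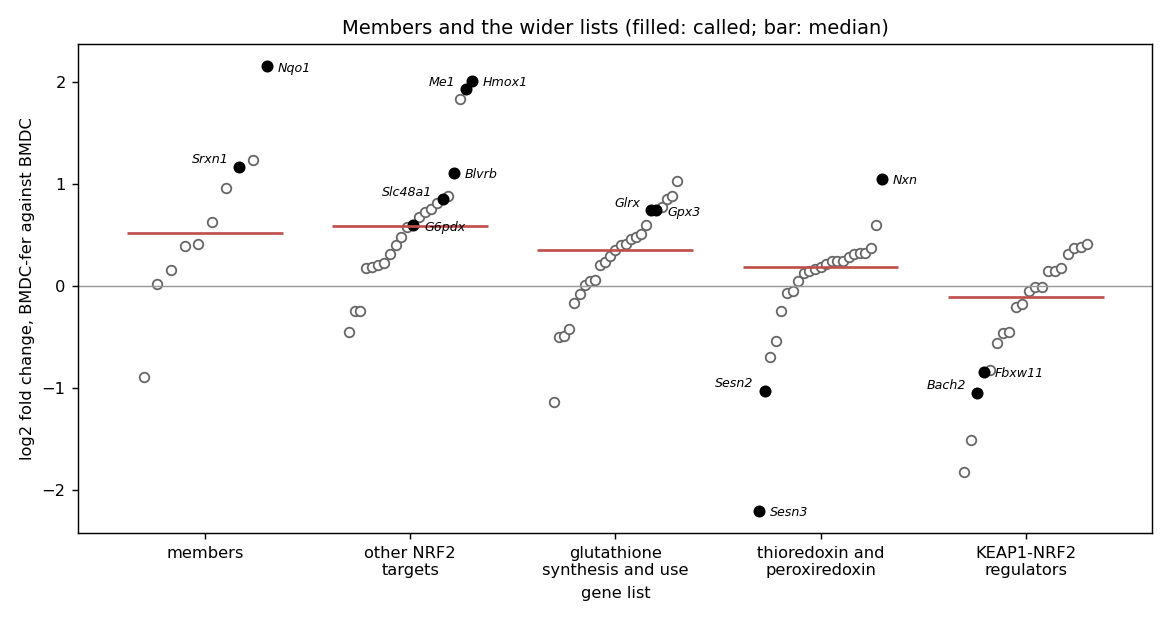
Log2 fold change of BMDC-fer against BMDC (y axis) for the 10 genes and for each tested gene of 4 further lists (x axis, ordered within a list by value). Filled points are called genes, with their names, and bars are list medians, 0.52 for the 10 genes, 0.59 for other NRF2 targets, 0.36 for glutathione, 0.18 for thioredoxin and peroxiredoxin and -0.11 for KEAP1-NRF2 regulators.

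Of 29 further genes of glutathione synthesis and use, 25 were tested and 2 were called, both higher, a share close to the 9.38% over all genes. Their median log2 fold change was 0.36, 19 of 25 were above 0, while the replicate block and DESeq2 gave 5 calls each, all higher. Glrx, a glutaredoxin that removes glutathione from proteins, rose from 104 ± 16.9 to 174 ± 24.1 CPM (0.75, SE 0.15, adjusted p = 0.0186). Gpx3, a secreted glutathione peroxidase, rose from 84.1 ± 19.4 to 141 ± 28.7 CPM (0.75, SE 0.21, adjusted p = 0.0483), a call that was lost under the replicate block (adjusted p = 0.0631). Leaving out 1 library, the call of Gpx3 held only without BMDC replicate 3 or BMDC-fer replicate 3 (adjusted p up to 0.128 without the others), and that of Glrx was lost without BMDC replicate 4 or BMDC-fer replicate 2 (adjusted p = 0.0526 and 0.0547). The extremes, both uncalled, were Chac2 at 1.03 (adjusted p = 0.0785) and Chac1 at -1.13 (adjusted p = 0.0975), which encode enzymes that degrade glutathione and were at 3.65 and 7.45 CPM and at 0.666 and 0.302 CPM in BMDC and BMDC-fer.

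All 23 further genes of the thioredoxin and peroxiredoxin system were tested and 3 were called, 1 higher and 2 lower, beside 9.38% over all genes. Their median log2 fold change was 0.18, and 16 of 23 were above 0. Nxn, nucleoredoxin, rose from 9.96 ± 2.81 to 20.7 ± 3.43 CPM (log2 fold change 1.05, SE 0.23, adjusted p = 0.0229). Among the sestrins, Sesn2 fell from 59.4 ± 12.7 to 29.2 ± 2.69 CPM (-1.03, SE 0.16, adjusted p = 0.00746) and Sesn3 fell from 15.3 ± 5.43 to 3.31 ± 1.17 CPM (-2.20, SE 0.33, adjusted p = 0.00702). Sestrins are known as stress-induced proteins that restrain mTORC1, and Sesn2 is known to promote the degradation of KEAP1. Sesn1, looked up after its values had been seen, went the other way, at 29.3 ± 9.83 and 44.2 ± 7.31 CPM (0.60, adjusted p = 0.136, not called), and was called higher under the replicate block (0.64, adjusted p = 0.0424). Under that block, 2 genes of the list were called higher and 3 lower. The calls of Sesn2 and Sesn3 held whichever single library was left out, and that of Nxn was lost without BMDC-fer replicate 2, 3 or 4 (adjusted p = 0.0519, 0.0601 and 0.0664).

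All 20 further regulators of KEAP1 and NRF2 were tested and 2 were called, both lower, beside 9.38% over all genes. Their median log2 fold change was -0.11, and 7 of 20 were above 0. Fbxw11, a ubiquitin ligase adaptor of the beta-TrCP type that can target NRF2 apart from KEAP1, fell from 96.6 ± 27.7 to 54.1 ± 1.40 CPM (-0.84, SE 0.19, adjusted p = 0.0272). The call of Fbxw11 held without BMDC replicate 1 or 2 and was lost without BMDC replicate 3 or 4 (adjusted p = 0.0626 and 0.0598) or without any of BMDC-fer replicates 1 to 4 (0.0638, 0.0657, 0.0669 and 0.0801). Bach2, which represses genes at elements of the same kind, fell from 0.555 ± 0.109 to 0.269 ± 0.0606 CPM (adjusted p = 0.0475), with 10 counts in the lowest library, and its call was lost under the replicate block (adjusted p = 0.0775) and whichever single library was left out (adjusted p from 0.0674 to 0.127). Bach1, a heme-regulated repressor of Hmox1 that was looked up after its values had been seen, was at 105 ± 19.9 and 71.4 ± 2.37 CPM (log2 fold change -0.56, adjusted p = 0.0352), with all BMDC-fer libraries below all BMDC libraries and a fold change short of the threshold. The extremes, both uncalled, were Pgam5, a mitochondrial phosphatase that binds KEAP1, at 0.41 (adjusted p = 0.0663), and Nfe2l3, a relative of NRF2, at -1.82 (adjusted p = 0.145).

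Without BMDC replicates 1 and 3, in a fit with fewer libraries, no gene of these 4 lists was called. The lists share Slc7a11, Sqstm1, Gstm1 and Gsta4, which count once in each list that holds them.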

How the data were processed

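The authors mapped filtered reads with HISAT2 (build mm10 in the submitters' processing notes), counted them per gene with featureCounts, and deposited raw counts of mouse genes, used here as they are. Versions, strand setting and the handling of multiply mapped or human reads are not given in the sources used here. Of 55487 identifiers, 55227 matched GENCODE M21 and 55141 had a symbol.

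The analysis used edgeR 4.0.16 in R 4.3.3, with TMM normalization, filterByExpr with a count minimum of 10, and the quasi-likelihood test with Benjamini-Hochberg adjustment over 15411 genes, n = 4 libraries per group. Called genes had an adjusted p up to 0.05 and a log2 fold change of at least 0.58 in size. Alternatives were DESeq2 1.42.0, other scalings and filters, the replicate number as a block, a term for the replicate pair, no fold change threshold, a test against it, and leaving out each library; leaving out BMDC replicates 1 and 3 was added after seeing the data. RPKM used merged GENCODE M21 exons. The scripts were tested on simulated data. Same-numbered libraries deviated together from their group means (r from 0.313 to 0.446 over genes), so the numbers were taken to pair samples. This comes from the data, not from the labels: across the groups, number 1 with 2 and number 3 with 4 gave a mean r of 0.299, and 4 of 8 libraries correlated best with their own number, so the split between replicate pairs makes up much of this correlation. No 2 libraries agreed within sampling noise. Where samples did not come from separate cultures, p-values measure technical spread.

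The 10 genes and the lists were chosen with earlier results of these data known. All 10 are named; of each list, the called genes and the extremes are named.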

Additional observations from a re-analysis of the deposited data

How the results depend on the processing

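Over 190 results of the 10 genes under alternatives, 164 kept their direction and their side of the threshold, 13 lost a call, 9 gained one and 4 turned direction. The 4 were all Gsr, at -0.048 (log2) with library totals only and, over the fits that left out 1 library, between -0.062 and 0.13, below 0 without BMDC replicate 1, BMDC replicate 2 or BMDC-fer replicate 3. Within a replicate pair, replicates 3 and 4 gave -0.040 for Gclc and -0.197 for Gsr, and replicates 1 and 2 gave 0.208 for Osgin1, each opposite to the pooled direction. The number of the 10 genes called was 2, and it was 4 with DESeq2, 5 with the replicate block, 5 with a term for the replicate pair, 0 when the test was made against the threshold fold change, 0 without BMDC replicates 1 and 3 (chosen after seeing the data) and 0 to 2 when 1 library was left out. Over all genes the number was 1445, against 2406, 2000, 2815, 225, 92 and 565 to 1440 in the same order. For other NRF2 targets it was 5, against 9, 8, 12, 0, 0 and 2 to 6. For glutathione it was 2, against 5, 5, 8, 0, 0 and 0 to 3, with 0 under library totals only and 4 with no fold change threshold. For thioredoxin and peroxiredoxin it was 3, and it was 5 with the replicate block, 5 with the pair term, 1 against the threshold, 0 without BMDC replicates 1 and 3 and 2 to 3 when 1 library was left out. For KEAP1-NRF2 regulators it was 2, and it was 3 with DESeq2, library totals only or no fold change threshold, and 2 with the pair term. For the same list it was 1 with upper-quartile scaling, no filter, a filter of 1 CPM or the replicate block, 0 against the threshold, 0 without BMDC replicates 1 and 3 and 0 to 3 when 1 library was left out. The promoter core was held by 5 genes, and by 1 with an A next to it. Fits without 1 library or without BMDC replicates 1 and 3 had fewer samples, and the causes of the other moves were not tested. The 10 genes had 479 or more counts in every library, and each group had 4 libraries split into replicate pairs. The part of counting error in the spread between replicates was not tested.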
